A study of Mus musculus with 4 samples.

Results

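The Siglec receptor genes *Siglecf*, *Siglece*, *Cd33*, *Siglec1* and *Siglecg* were followed in RNA-Seq libraries of neutrophils sorted from the injured mouse heart. These 5 genes were found by their symbols among the 25655 genes of the files, and each matched 1 entry. The cells were CD45.2+CD11b+Ly6G+ neutrophils, collected 3 days after myocardial ischemia and reperfusion (MI/R) and divided by surface SiglecF into SiglecF hi and SiglecF lo cells, which the labels call SiglecF-positive and SiglecF-negative. They came from WT mice or from mice lacking CD300a in the whole body (*Cd300a-/-*), which were males on the C57BL/6 background, 8 to 12 weeks of age, with the left anterior descending artery tied for 60 minutes. Each of the 4 groups had 1 library, made from the pooled cells of 8 hearts and at least 20000 cells, so no difference has a replicate check and no test between conditions was made. The SiglecF hi libraries held 19278243 counts on genes in WT and 17632989 in *Cd300a-/-*, and the SiglecF lo libraries 9631901 and 10988619. Levels are given as TPM, the share of a library's transcripts that a gene makes up, which corrects for gene length and depth and has the same sum in each library. The intervals given are 95% counting intervals, which cover counting error only: several reads can stem from 1 molecule, and variation between the pooled hearts is not seen.

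Siglecs are cell surface lectins that bind sialic acids at the ends of glycan chains. Most members of the CD33-related branch carry inhibitory tyrosine motifs in their cytoplasmic tails, which recruit the phosphatases SHP-1 and SHP-2 once Src family kinases have phosphorylated them. SiglecF is best known from eosinophils and alveolar macrophages and is also carried by a subset of neutrophils in injured tissue. Siglec-E is the main inhibitory Siglec of mouse neutrophils and macrophages. Mouse CD33 is a myeloid receptor whose cytoplasmic tail differs from that of human CD33. Siglec-1, or sialoadhesin, is a long adhesion receptor of tissue macrophages without such motifs, and Siglec-G is best known for restraining receptor signalling in B-1 cells.

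The genotype and gate labels were first checked against their own genes. *Cd300a* had 6640 counts in WT SiglecF hi and 3024 counts in WT SiglecF lo neutrophils, against 27 and 28 counts in the *Cd300a-/-* SiglecF hi and SiglecF lo neutrophils. SiglecF protein was a sorting gate, so the difference of *Siglecf* between subsets checks the sort and is no finding. In WT, SiglecF hi neutrophils had *Siglecf* at 354 TPM (interval 347 to 362) and SiglecF lo neutrophils at 11.3 TPM (9.58 to 13.2), a TPM ratio of 31.4 (exact interval 26.9 to 37.0). In *Cd300a-/-* it was at 405 TPM (397 to 414) and 15.3 TPM (13.4 to 17.4), a ratio of 26.4 (23.2 to 30.2). The SiglecF lo libraries therefore held *Siglecf* transcripts, with 158 counts in WT and 237 counts in *Cd300a-/-*. *Ly6g*, the gene of the neutrophil gate, was at 11.1 and 41.9 TPM in WT and *Cd300a-/-* SiglecF hi neutrophils and at 330 and 889 TPM in the SiglecF lo neutrophils. All 8 listed neutrophil genes were above 1 TPM in each library. Their summed level in SiglecF hi neutrophils was 27503 TPM for WT and 32526 TPM for *Cd300a-/-*, that in SiglecF lo neutrophils 154960 and 204322 TPM, and *S100a9* was the most abundant of them. Of these 8 genes 6 were called lower and 0 higher in SiglecF hi neutrophils of WT and 7 lower and 0 higher in those of *Cd300a-/-* mice, by the rule given below, with median log2 ratios of -2.53 and -2.64, where 59.4% and 64.6% of all genes were called. After centring all 8 were lower in both genotypes, beside 40.2% and 44.8% of all genes.

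The Siglec genes fell into 3 levels. By mean TPM over the 4 libraries *Siglece* (232 TPM), *Siglecf* (197 TPM) and *Cd33* (160 TPM) stood highest, *Siglec1* followed at 25.9 TPM and *Siglecg* was lowest at 6.64 TPM. In the SiglecF hi libraries of both genotypes the order was *Siglecf*, *Siglece*, *Cd33*, *Siglec1* and *Siglecg*, and no neighbours in this order had overlapping intervals. In the SiglecF lo libraries *Siglece* and *Cd33* led and *Siglecg* was last. *Siglecf* and *Siglec1* lay between them with overlapping intervals, at 11.3 TPM and 9.21 TPM (8.25 to 10.2) in WT and at 15.3 TPM and 14.5 TPM (13.3 to 15.7) in *Cd300a-/-*. Among all genes, *Siglecf* ranked 461 and *Siglece* 882 in WT SiglecF hi neutrophils, and *Siglece* ranked 564 in WT SiglecF lo neutrophils. *Cd33* gave more counts than *Siglece*, 6440 against 2893 in WT SiglecF hi neutrophils, but a lower TPM, because the deposited values imply a gene model of about 7018 bases for *Cd33* and about 2132 bases for *Siglece*.

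**Figure D1:**
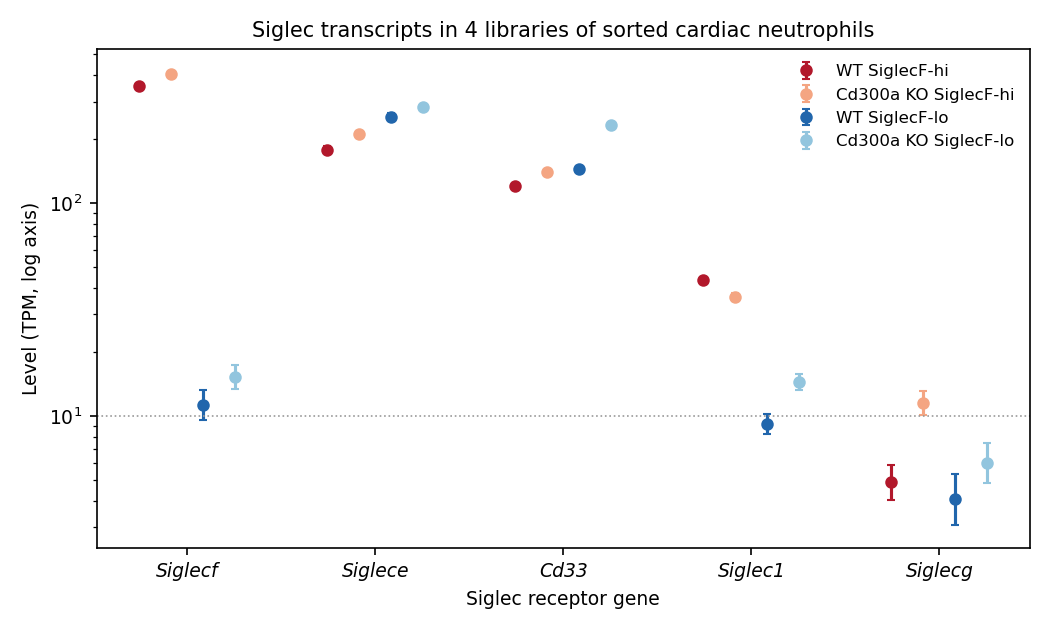
Level of each of the 5 Siglec receptor genes (TPM, log axis) in the 4 libraries, with 95% counting intervals, which are narrower than the points for abundant genes. The dotted line marks 10 TPM. *Siglecf* ranges from 11.3 TPM in WT SiglecF lo to 405 TPM in *Cd300a-/-* SiglecF hi neutrophils, while *Siglece* stays between 178 and 284 TPM.

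The share of each gene in the Siglec transcripts does not depend on the scaling between libraries, but the share of *Siglecf* follows from the gate. The summed level of the 5 genes was 702 TPM for WT and 804 TPM for *Cd300a-/-* SiglecF hi neutrophils, of which *Siglecf* made up 50.5% (interval 49.7 to 51.2) and 50.4% (49.7 to 51.2). The sum was 423 TPM in WT SiglecF lo and 554 TPM in *Cd300a-/-* SiglecF lo neutrophils, where *Siglecf* made up 2.67% (2.25 to 3.08) and 2.77% (2.42 to 3.12). Without *Siglecf*, the SiglecF hi sums were 347 TPM for WT and 399 TPM for *Cd300a-/-*, and the SiglecF lo sums 412 and 538 TPM. Within a library, *Siglece* was above *Cd33* in each case. For SiglecF hi neutrophils the TPM ratio of *Siglece* to *Cd33* was 1.48 (1.41 to 1.54) with WT and 1.50 (1.44 to 1.57) with *Cd300a-/-* cells. For SiglecF lo neutrophils it was 1.75 (1.66 to 1.84) and 1.21 (1.16 to 1.27). The share of *Cd33* among the 5 genes was thus higher in *Cd300a-/-* SiglecF lo neutrophils, at 42.3% (41.3 to 43.2), than in WT SiglecF lo neutrophils, at 34.3% (33.2 to 35.3).

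Libraries were compared by the log2((TPM + 1) ratio). The added 1 draws the ratio of a weakly expressed gene toward 0. A gene was called past 0.5 in either direction among the 6523 genes with a mean TPM over 10. Of the 5 Siglec genes, 4 passed this limit and *Siglecg* did not. *Siglec1* was under 10 TPM in WT SiglecF lo neutrophils and passed through the other libraries. The SiglecF hi to SiglecF lo log2 ratios of these 6523 genes had a median of 0.53 for WT and 0.61 for *Cd300a-/-* mice, and values centred on that median stand beside the others. The medians of the genotype comparisons were 0.04 for SiglecF hi and -0.02 for SiglecF lo cells.

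In WT, *Siglec1* was higher and *Siglece* and *Cd33* were lower in SiglecF hi than in SiglecF lo neutrophils. *Siglec1* was at 43.6 TPM (2730 counts) and 9.21 TPM (338 counts), in this order, a log2 ratio of 2.13 (interval 1.98 to 2.27), or 1.60 after centring. *Siglece* was at 178 TPM (2893 counts) and 253 TPM (2407 counts), a log2 ratio of -0.50 (-0.58 to -0.43), or -1.03 after centring. *Cd33* was at 121 TPM (6440 counts) and 145 TPM (4533 counts), a log2 ratio of -0.26 (-0.32 to -0.21), or -0.79 after centring. The 4 Siglec genes over the limit thus split by direction, and 3 of the 4 were called, *Siglecf* and *Siglec1* higher and *Siglece* lower, where 59.4% of all 6523 genes were called. *Siglece* lay at the threshold itself. After centring, all 4 were called, with *Cd33* added to the lower genes, and 40.2% of all genes were called. *Siglecf* is counted here although the gate fixes its direction. Fewer cells carrying a transcript and less transcript in each cell cannot be told apart in these pooled libraries.

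In *Cd300a-/-* the same genes lay on the same sides. With SiglecF hi given before SiglecF lo neutrophils, *Siglec1* was at 36.3 TPM (2038 counts) and 14.5 TPM (586 counts), a log2 ratio of 1.27 (1.15 to 1.40), or 0.66 after centring. *Cd33* was at 140 TPM (6693 counts) and 234 TPM (8071 counts), a log2 ratio of -0.74 (-0.78 to -0.69), or -1.35 after centring. *Siglece* was at 211 TPM (3060 counts) and 284 TPM (2975 counts), a log2 ratio of -0.43 (-0.50 to -0.36), or -1.04 after centring. Called were 3 of the 4 genes, *Siglecf* and *Siglec1* higher and *Cd33* lower, where 64.6% of all genes were called. Taken relative to the summed macrophage list, a scale chosen after seeing the values, the log2 ratio of *Siglec1* was 0.93 in WT and 0.09 in *Cd300a-/-*, so that it was no longer past 0.5 in *Cd300a-/-*. After centring all 4 were called, with *Siglece* added to the lower genes, and 44.8% of all genes were called. *Siglecg*, under the limit, had log2 ratios of 0.21 (-0.17 to 0.59) in WT and 0.83 (0.52 to 1.14) in *Cd300a-/-*. After centring these were -0.32 and 0.22, so that the direction of *Siglecg* in WT depends on the scaling and its counting interval includes 0.

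**Figure D2:**
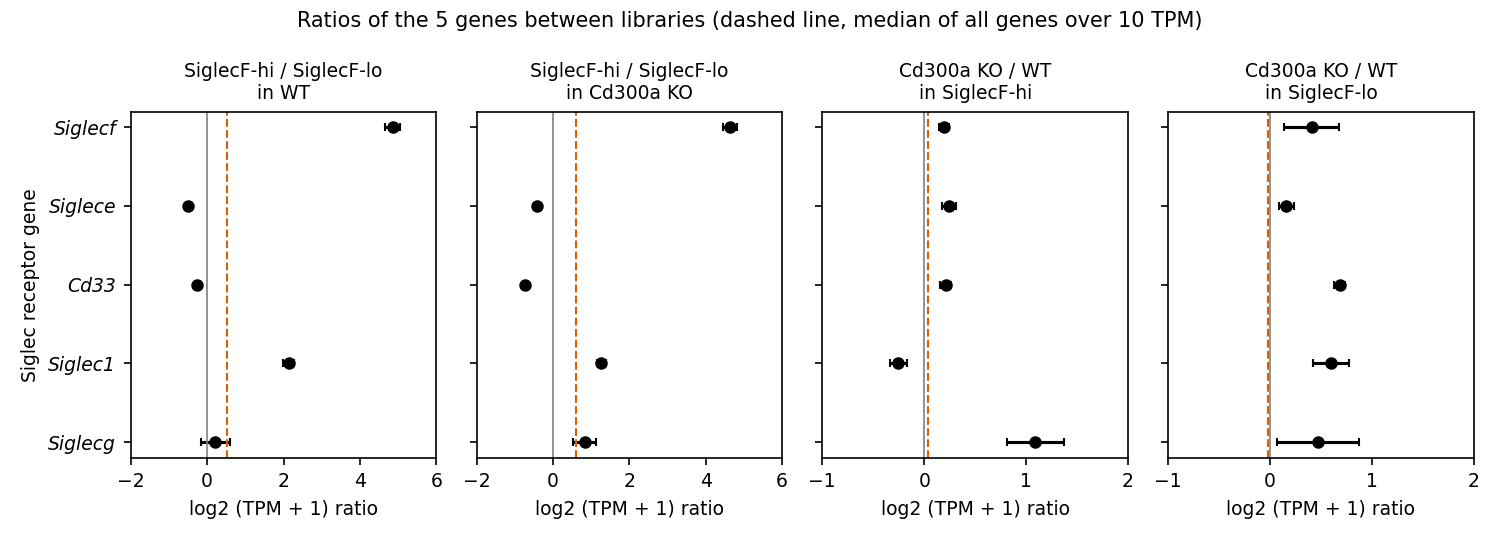
The log2((TPM + 1) ratio) of each Siglec receptor gene in the 4 comparisons, with 95% counting intervals. The solid line marks 0 and the dashed line the median of the 6523 genes over the limit, which is 0.53 and 0.61 in the subset comparisons. *Siglece* and *Cd33* lie left of both lines in both subset comparisons, and *Siglec1* lies left of 0 between genotypes in SiglecF hi and right of 0 in SiglecF lo neutrophils. The horizontal axes of the subset and the genotype comparisons differ.

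In SiglecF hi neutrophils the Siglec genes over the limit differed little between genotypes. None of the 4 was called, where 6.78% of all genes were called. *Siglecf*, *Siglece* and *Cd33* had log2 ratios of *Cd300a-/-* to WT of 0.19 (0.15 to 0.24), 0.24 (0.17 to 0.31) and 0.21 (0.16 to 0.26). *Siglec1* had a log2 ratio of -0.26 (-0.34 to -0.17). These intervals exclude 0, which says only that the pair of libraries differed by more than counting error. *Siglecg* was at 4.88 TPM in WT (110 counts, interval 90.4 to 133) and 11.5 TPM in *Cd300a-/-* (233 counts, interval 204 to 265). Its TPM ratio of 2.37 (exact interval 1.88 to 3.00) and its log2 ratio of 1.09 were the largest among the 5 genes in this comparison. Only the limit on mean TPM kept *Siglecg* from being called, and 99.6% of the 6523 genes over that limit had a lower log2 ratio. Of the 8 neutrophil genes 3 were called higher in *Cd300a-/-* and 0 lower in this comparison, *Ly6g* (1.82), *Retnlg* (1.20) and *Mmp8* (1.10), with a median of 0.32 against 0.04 for all genes.

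In SiglecF lo neutrophils each of the 5 genes was higher in *Cd300a-/-* than in WT, also with TMM scaling or median centring. *Cd33* rose from 145 TPM (141 to 149) in WT to 234 TPM (229 to 239) in *Cd300a-/-*, a log2 ratio of 0.69 (0.63 to 0.74). *Siglec1* rose from 9.21 to 14.5 TPM, a log2 ratio of 0.60 (0.42 to 0.78). These were 2 of the 4 genes over the limit, where 36.3% of all genes were called in either direction and 16.4% were called higher in *Cd300a-/-*. The other values stayed under the threshold. *Siglecf* had a log2 ratio of 0.41 (0.14 to 0.68) and *Siglece* of 0.16 (0.09 to 0.24). *Siglecg*, at 54 counts in WT and 88 counts in *Cd300a-/-*, had a log2 ratio of 0.47 (0.07 to 0.87). *Cd33* lay above 91.2% and *Siglec1* above 88.3% of the 6523 genes in this comparison. Of the genes of the gate, *Ly6g* (log2 ratio 1.43) and *Itgam* (0.58) were also called higher in *Cd300a-/-* SiglecF lo neutrophils, and *Ptprc*, which encodes CD45, was not (0.17). Of the 8 neutrophil genes 4 were called higher and 0 lower in this comparison, *Ly6g*, *Retnlg*, *Mmp8* and *Mmp9*, with a median of 0.54 against -0.02 for all genes. The part of these genes' differences in the values of the Siglec genes was not tested.

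The genotype ratio was then compared between the subsets, as the log2 ratio in SiglecF lo minus that in SiglecF hi neutrophils. *Siglec1* had a difference of 0.86 (0.66 to 1.05), because it was lower in *Cd300a-/-* SiglecF hi and higher in *Cd300a-/-* SiglecF lo neutrophils. This difference was above that of 95.3% of the 6523 genes. *Cd33* had a difference of 0.47 (0.40 to 0.54), above 84.9% of the genes. *Siglecg* went the other way, with -0.63 (-1.12 to -0.13), its genotype ratio being larger in SiglecF hi neutrophils. The intervals of *Siglecf*, 0.22 (-0.05 to 0.49), and *Siglece*, -0.08 (-0.18 to 0.03), include 0. With 1 library per group, whether these differences belong to the genotypes or to the pools was not tested.

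Cells of other kinds carry the same receptors, so marker genes of those cells were read beside the Siglec genes. For eosinophils, *Epx* had 0 counts in all 4 libraries, where a count of 0 allows up to 3 counts (1-sided 95% limit). *Prg2*, *Prg3*, *Ear1* and *Ear6* had at most 6 counts in a library, and *Il5ra* at most 12. *Ear2* was the most abundant of the 8 eosinophil genes, at 110 and 113 TPM in WT and *Cd300a-/-* SiglecF hi and at 171 and 85.9 TPM in WT and *Cd300a-/-* SiglecF lo neutrophils. *Ccr3*, at 4.91, 5.49, 1.49 and 1.78 TPM in the same order, was the only listed eosinophil gene beside *Ear2* above 1 TPM. The summed level of the list was 117, 120, 173 and 87.9 TPM. In the SiglecF hi libraries, where *Siglecf* was high, *Epx*, *Prg2*, *Prg3*, *Ear1* and *Ear6* were thus at or near 0, while *Ear2* and *Ccr3* were not. The part of eosinophil RNA in the level of *Siglecf* was not tested.

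Macrophage genes were read beside *Siglec1*. All 12 were above 1 TPM in each library, and none of them was at 0. Their summed level was 7198, 6511, 2909 and 2767 TPM in the 4 libraries, named in the order of the eosinophil values (SiglecF hi before SiglecF lo, WT before *Cd300a-/-* in each). *C1qb*, a subunit of the complement component C1q, had the highest mean TPM, at 2257, 2036, 839 and 754 TPM. Of the 11 genes over the limit, 8 were higher and 1 was lower in WT SiglecF hi than in WT SiglecF lo neutrophils, with a median log2 ratio of 1.34 (0.81 after centring), and after centring 7 were higher and 1 was lower. Over all genes 59.4% were called in either direction and 40.2% after centring, with a median of 0.53. In *Cd300a-/-* 9 were higher and 0 lower, with a median of 1.01 (0.40 after centring), and after centring 5 were higher and 1 was lower, where 64.6% and 44.8% of all genes were called and their median was 0.61. *Mertk*, counted as higher, was under 10 TPM in both SiglecF lo libraries and passed the limit through the others. The median genotype ratio of the list was -0.11 for SiglecF hi and 0.00 for SiglecF lo cells, and its genes went both ways. Among SiglecF hi cells, where *Siglec1* had a negative ratio, *Mertk* (-0.42), *Fcgr1* (-0.31), *C1qc* (-0.28), *Folr2* (-0.23), *C1qb* (-0.15), *C1qa* (-0.11) and *Mrc1* (-0.07) also had one, with intervals clear of 0, while *Cd163* (0.86) and *Lyve1* (0.80) were called higher in *Cd300a-/-* and 0 genes lower, where 6.78% of all genes were called. For *Csf1r* (0.07) and *Timd4* (0.95, under the limit) the ratio among SiglecF hi cells was also positive, and *Adgre1* was at 329 TPM in both genotypes. Among SiglecF lo cells, where *Siglec1* was called higher, *Cd163* (1.28) and *Mrc1* (0.66) were called higher and *Fcgr1* (-1.22) lower, where 36.3% of all genes were called. The level of *Siglec1* as a percentage of the summed macrophage list, calculated after the values were seen, was 0.605% (0.582 to 0.629) and 0.558% (0.534 to 0.583) for WT and *Cd300a-/-* SiglecF hi cells. For SiglecF lo cells it was 0.317% (0.284 to 0.353) and 0.523% (0.482 to 0.568). WT SiglecF lo neutrophils were therefore lowest on this scale also. The part of macrophage RNA in the level of *Siglec1* was not tested.

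For the 4 monocyte genes the summed level was 803, 661, 1114 and 1015 TPM in WT SiglecF hi, *Cd300a-/-* SiglecF hi, WT SiglecF lo and *Cd300a-/-* SiglecF lo neutrophils, with *Ly6c2* the most abundant. In WT *Ly6c2* was called lower in SiglecF hi neutrophils and *Fn1* and *F13a1* were called higher, and in *Cd300a-/-* *Ly6c2* was lower and *F13a1* higher, where 59.4% and 64.6% of all genes were called. After centring 2 of the 4 were lower and 0 higher in both genotypes, beside 40.2% and 44.8% of all genes. Of B cell genes read beside *Siglecg*, *Cd79b* was at 6.13, 7.12, 2.31 and 2.22 TPM in the same order, and *Ighm* had 0 counts in all 4 libraries. *Cd79a* was at 1.56 TPM for WT and 5.85 TPM for *Cd300a-/-* SiglecF hi neutrophils, where *Siglecg* was also higher. The part of B cell RNA in the level of *Siglecg* was not tested. The plasmacytoid dendritic cell genes summed to 20.4, 23.8, 26.8 and 11.2 TPM, and the dendritic cell genes to 4.51, 7.03, 12.8 and 1.61 TPM. In WT SiglecF lo neutrophils *Klk1* alone gave 16.5 TPM of the former sum and *Cd209a* alone 10.5 TPM of the latter. The mast cell genes summed to 1.54, 1.45, 1.15 and 13.2 TPM, which in *Cd300a-/-* SiglecF lo neutrophils was *Kit* alone, while *Cpa3*, *Mcpt4*, *Cma1* and *Tpsb2* had 0 counts in all 4 libraries. The T cell genes summed to 4.53, 6.75, 5.57 and 11.7 TPM, and *Trac* had 0 counts in all 4 libraries.

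Of the other Siglec genes, none of 4 passed the limit. *Cd22*, the inhibitory co-receptor of B cells, was the most abundant of them in the SiglecF hi libraries and *Mag* in the SiglecF lo libraries. In WT *Cd22* was at 9.76 TPM (431 counts) among SiglecF hi and 0.967 TPM (25 counts) among SiglecF lo cells, a TPM ratio of 10.1 (exact interval 6.75 to 15.8), and at 10.6 TPM (419 counts) and 1.44 TPM (41 counts) in *Cd300a-/-*, a ratio of 7.37 (5.34 to 10.4). The genotype ratios of *Cd22* were 1.09 (0.947 to 1.25) for SiglecF hi and 1.49 (0.883 to 2.55) for SiglecF lo cells, and these intervals include 1. *Mag*, of myelinating cells, had 13 to 46 counts and *Siglech*, of plasmacytoid dendritic cells, 2 to 35 counts in a library. At these low counts the genotype ratio of *Mag* was 1.61 (0.963 to 2.74) for SiglecF hi and 3.21 (1.70 to 6.47) for SiglecF lo cells. That of *Siglech* was 0.0638 (0.00744 to 0.248) for SiglecF hi and 1.12 (0.503 to 2.52) for SiglecF lo cells. *Siglec15* had 0 counts in all 4 libraries.

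Kinases, phosphatases and adaptors of Siglec signalling were counted as a list. Of the 10 genes 9 passed the limit, all but *Src*. *Tyrobp*, which encodes the activating adaptor DAP12, was the most abundant, at 4928, 4742, 6600 and 5451 TPM in WT SiglecF hi, *Cd300a-/-* SiglecF hi, WT SiglecF lo and *Cd300a-/-* SiglecF lo neutrophils. *Ptpn6*, which encodes SHP-1, was at 422, 464, 384 and 431 TPM, and *Ptpn11*, which encodes SHP-2, at 29.1, 27.0, 17.4 and 22.3 TPM. Between the subsets 2 of the 9 were higher and 1 was lower in SiglecF hi cells of WT mice, with a median of 0.10 against 0.53 for all genes, of which 59.4% were called. In *Cd300a-/-* 1 was higher and 1 lower, with a median of -0.09 against 0.61 for all genes, of which 64.6% were called. After centring 0 were higher and 4 lower in WT, and 0 higher and 6 lower in *Cd300a-/-*, beside 40.2% and 44.8% of all genes called. *Socs3* was higher in SiglecF hi neutrophils of both genotypes before centring, at 509 against 307 TPM in WT and 585 against 309 TPM in *Cd300a-/-*. Between genotypes none of the 9 was called in SiglecF hi neutrophils, and in SiglecF lo neutrophils *Hcst*, the adaptor DAP10, was lower in *Cd300a-/-*, at 155 TPM against 266 TPM in WT, where 6.78% and 36.3% of all genes were called.

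The genes that make, attach and remove sialic acid, and those that encode carriers of Siglec ligands, were counted next. Of the 46 that matched a name in the files, 20 passed the limit. Between the subsets 8 were higher and 4 lower in WT SiglecF hi neutrophils, and 8 higher and 2 lower in *Cd300a-/-*. Over all genes 59.4% and 64.6% were called, so the share of the list was near that of all genes in WT and under it in *Cd300a-/-*. After centring the numbers were 6 and 6 in WT and 4 and 6 in *Cd300a-/-*, where 40.2% and 44.8% of all genes were called. The share of the list was then above that of all genes in WT and near it in *Cd300a-/-*. Between genotypes *Spn* was the 1 gene higher in *Cd300a-/-* among SiglecF hi cells and *Npl* the 1 gene higher among SiglecF lo cells, with 0 lower in both, where 6.78% and 36.3% of all genes were called. After centring the log2 ratio of *Spn* was 0.49 and no longer called, and *Npl* was under 10 TPM in both SiglecF lo libraries.

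Of the sialidases and genes for the release of sialic acid 4 passed the limit, and 3 of these were higher and 0 lower in SiglecF hi neutrophils of both genotypes, where 59.4% (WT) and 64.6% (*Cd300a-/-*) of all genes were called. The 4 had a median log2 ratio of 1.26 in WT (0.73 after centring) and 1.06 in *Cd300a-/-* (0.45 after centring). After centring 3 were higher in WT and 2 in *Cd300a-/-*, where 40.2% and 44.8% of all genes were called. *Npl* and *Slc17a5* passed the limit only through the SiglecF hi libraries, so their being higher there is partly fixed by the limit. The sialidase *Neu1* was not called, with log2 ratios of 0.16 in WT and 0.48 in *Cd300a-/-*, or -0.37 and -0.13 after centring. *Ctsa*, the protective protein that holds the sialidase NEU1 in its active complex, was the most abundant at 633, 569, 269 and 244 TPM in WT SiglecF hi, *Cd300a-/-* SiglecF hi, WT SiglecF lo and *Cd300a-/-* SiglecF lo neutrophils. *Slc17a5*, the lysosomal sialic acid exporter, was at 16.8, 17.5, 6.32 and 8.83 TPM, and *Npl*, which breaks sialic acid down in the cytosol, at 35.1, 34.4, 4.49 and 8.34 TPM. Of the genes for sialic acid synthesis and modification 3 of 8 passed the limit. In WT SiglecF hi neutrophils 2 of the 3 were higher and in *Cd300a-/-* 1, with 0 lower, where 59.4% and 64.6% of all genes were called. After centring 1 was higher and 0 lower in both genotypes, beside 40.2% and 44.8% of all genes. *Nans*, the sialic acid synthase, had the highest mean TPM, at 50.2, 43.1, 10.5 and 11.7 TPM, and was higher in SiglecF hi neutrophils of both genotypes. *Cmah*, which makes the N-glycolyl form of sialic acid, stayed under the limit, at 3.76, 2.88, 8.05 and 13.2 TPM.

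The sialyltransferases were mixed. Of 20 listed genes 19 matched a name in the files, all but *St6galnac2*, and 7 passed the limit. *St3gal4* had the highest mean TPM, at 61.1, 68.3, 52.9 and 67.3 TPM in WT SiglecF hi, *Cd300a-/-* SiglecF hi, WT SiglecF lo and *Cd300a-/-* SiglecF lo neutrophils. Between the subsets 2 were higher and 2 lower in WT, and 3 higher and 1 lower in *Cd300a-/-*, beside 59.4% and 64.6% of all genes called. After centring these counts were 1 higher and 3 lower in WT, and 0 higher and 3 lower in *Cd300a-/-*, beside 40.2% and 44.8% of all genes. *St3gal1* and *St6gal1* were higher in SiglecF hi neutrophils of both genotypes before centring, at 54.2 against 31.1 TPM and 20.1 against 8.67 TPM in WT. *St6gal1* was thus under 10 TPM in WT SiglecF lo neutrophils and passed the limit through the other libraries. *St3gal5*, which makes the ganglioside GM3, was lower, at 34.5 against 54.2 TPM in WT and 39.7 against 59.7 TPM in *Cd300a-/-*. None of the 5 genes for sulfation and fucosylation of sialyl Lewis X passed the limit, and *Fut4* had the highest mean of them, with 6.27, 4.94, 2.10 and 4.33 TPM. Among 7 carriers of Siglec ligands 6 passed the limit. *Cd52* was the most abundant at 3187, 3285, 5491 and 4376 TPM, *Selplg*, the selectin ligand PSGL-1, was lower in SiglecF hi neutrophils of both genotypes, at 718 against 1637 TPM in WT and 697 against 1711 TPM in *Cd300a-/-*, and *Lgals3bp* was higher, at 219 against 100 TPM in WT and 203 against 83.3 TPM in *Cd300a-/-*. *Cd24a*, whose product is a ligand of Siglec-G, was at 1031, 1243, 995 and 1013 TPM.

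Genes with the most similar profile to each Siglec gene were found by the Euclidean distance of their 4 centred log2(TPM + 1) values, among genes over the limit. With 4 libraries many genes lie close by, and nothing about shared function or control follows from the distance. *Tlr2* (distance 0.0394), *Snrk* (0.0506) and *Hcls1* (0.0583) were nearest to *Siglece*, and 633 genes lay within 0.5 of it. *Actn1* (0.0600), *Ddx6* (0.0782) and *Atp11b* (0.0791) were nearest to *Cd33*, with 412 genes within 0.5. *Siglec1* was nearest to *Gtf3a* (0.0811), *Pmp22* (0.0838) and *Dpp7* (0.151), with 151 genes within 0.5. For *Siglecg* these were *H2-Q5* (0.213), *Soat2* (0.280) and *Josd2* (0.301), with 48 genes within 0.5. *Siglecf* had 0 genes within 0.5, its nearest being *Krt18* (1.03), *Cd5l* (1.46) and *Prss2* (1.65). The subset difference in the profile of *Siglecf* is set by the gate. *Krt18*, *Cd5l* and *Prss2* were under 10 TPM in both SiglecF lo libraries and passed the limit only through the SiglecF hi libraries.

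Of the 5 genes 4 lie within 309 kb of chromosome 7 (GRCm39, positions of the files). *Siglecf* (ENSMUSG00000039013) lies at 43000765 to 43008955 and *Siglecg* (ENSMUSG00000030468) at 43057628 to 43067782, both on the plus strand. *Cd33* (ENSMUSG00000004609) lies at 43173640 to 43193852 and *Siglece* (ENSMUSG00000030474) at 43300494 to 43309585, both on the minus strand. *Siglec1* (ENSMUSG00000027322) lies apart, on the minus strand of chromosome 2 from 130911140 to 130928685. The stretch of chromosome 7 from 42945621 to 43376958 holds 25 genes of the files, of which 5 passed the limit and 9 had 0 counts in all libraries. Beside *Siglecf*, *Cd33* and *Siglece* these 5 were *Zfp715* and *Etfb*, which encodes a subunit of the electron transfer flavoprotein. The genes of this stretch did not move as a block. *Etfb* was higher in SiglecF hi neutrophils, at 169 against 65.6 TPM in WT. Its genotype ratios were negative, -0.32 for SiglecF hi and -0.64 for SiglecF lo cells. *Zfp715* was at 17.9, 20.7, 6.60 and 14.3 TPM in WT SiglecF hi, *Cd300a-/-* SiglecF hi, WT SiglecF lo and *Cd300a-/-* SiglecF lo neutrophils. Its genotype log2 ratios were 0.20 (0.06 to 0.33) for SiglecF hi and 1.01 (0.78 to 1.24) for SiglecF lo cells. Those of *Siglecf*, *Cd33* and *Siglece* were also positive in both subsets. *Ceacam18*, 1775 bases from *Siglece*, was at 3.53, 2.20, 5.83 and 1.97 TPM. Around *Siglec1*, 2 of 8 genes within 100 kb passed the limit, *Cenpb* at 60.0, 51.2, 30.8 and 39.4 TPM and *1700037H04Rik* at 21.1, 19.8, 12.5 and 15.3 TPM. No gene of the files overlapped any of the 5 Siglec genes.

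**Figure D3:**
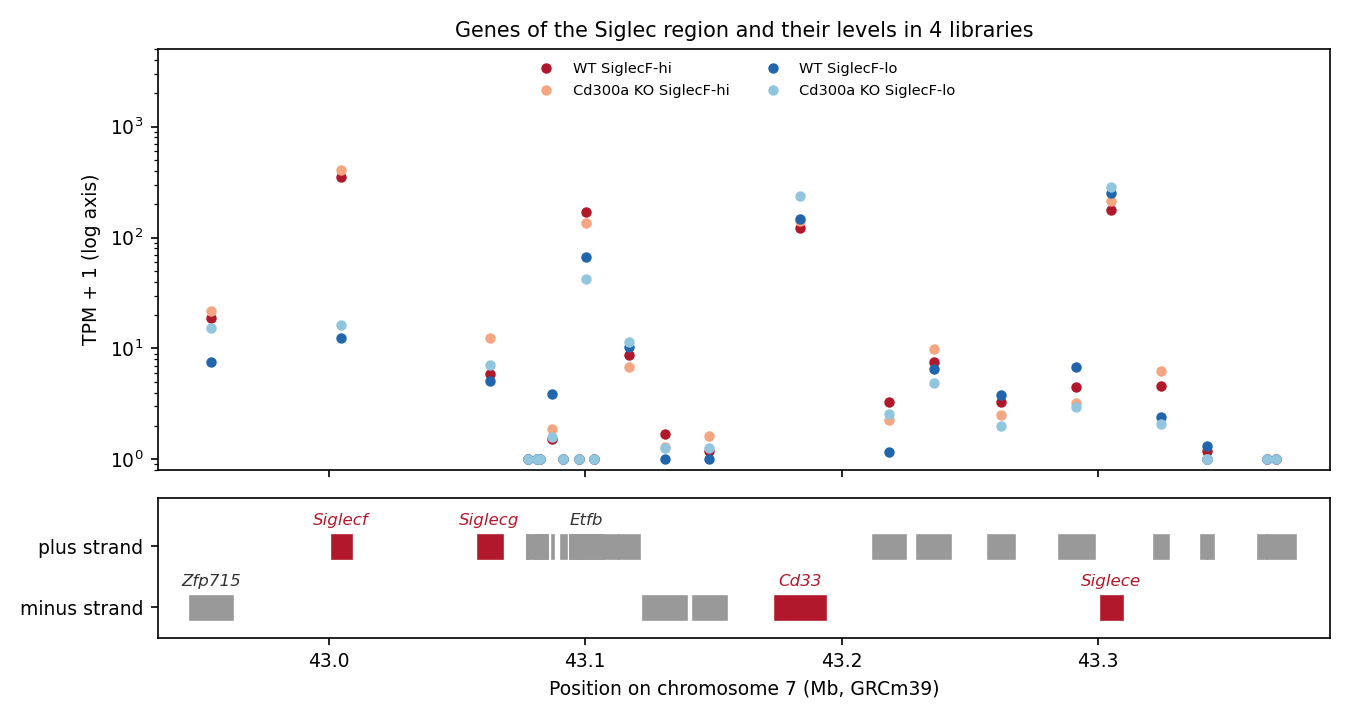
Genes of the Siglec region of chromosome 7 (GRCm39). The upper panel gives TPM + 1 (log axis) of each gene at its midpoint in the 4 libraries, and the lower panel the position and strand of each gene, with Siglec genes in red and names for these and for genes over the limit. *Siglecf* and *Etfb* are higher in SiglecF hi neutrophils and *Cd33* and *Siglece* lower, and 9 of the 25 genes have 0 counts.

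Because the genes are paralogs, shared sequence could move reads between them. Of the 31-base words in the GENCODE M21 transcripts of each gene, 0.872% for *Siglecf*, 1.19% for *Siglece*, 0.922% for *Cd33* and 1.66% for *Siglec1* also occur in a transcript of another gene. For *Siglecg* the share was 7.01%, of which 287 of 349 shared words occur in the predicted gene *Gm29791*. *Siglecf* and *Siglecg* share 25 such words with each other, and no other pair of the 5 genes shares any. How many reads such words moved was not measured, so the counts of *Siglecg* are uncertain to an extent that is not known.

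The sequences before the starts of *Siglecf*, *Cd33* and *Siglece* were picked because these neighbours go in opposite directions between the subsets. That contrast is set by the gate, which fixes the direction of *Siglecf*, while *Cd33* and *Siglece* were both lower in SiglecF hi neutrophils. The sequences are therefore given as a description only. The table of RefSeq start windows used here (GRCm38.p6, a build other than that of the files) holds 4 of the 5 genes, all but *Siglec1*. The 250 bases before each start follow, 5′ to 3′ on the strand of the gene, with GGAA and its reverse complement TTCC, the core bound by ETS family factors, in capitals. The windows are chr7:43351091-43351340 on the plus strand for *Siglecf*, chr7:43533172-43533421 on the minus strand for *Cd33* and chr7:43660162-43660411 on the minus strand for *Siglece*.
Siglecf: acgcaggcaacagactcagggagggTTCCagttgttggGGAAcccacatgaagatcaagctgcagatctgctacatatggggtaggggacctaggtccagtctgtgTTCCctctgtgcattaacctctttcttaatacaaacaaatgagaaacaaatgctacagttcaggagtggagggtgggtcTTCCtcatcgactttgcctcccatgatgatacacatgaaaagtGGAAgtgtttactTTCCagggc
Cd33: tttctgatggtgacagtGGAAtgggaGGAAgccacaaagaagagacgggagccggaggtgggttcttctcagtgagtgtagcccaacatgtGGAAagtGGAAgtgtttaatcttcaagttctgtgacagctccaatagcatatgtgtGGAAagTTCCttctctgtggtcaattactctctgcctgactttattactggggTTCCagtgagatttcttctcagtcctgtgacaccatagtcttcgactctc
Siglece: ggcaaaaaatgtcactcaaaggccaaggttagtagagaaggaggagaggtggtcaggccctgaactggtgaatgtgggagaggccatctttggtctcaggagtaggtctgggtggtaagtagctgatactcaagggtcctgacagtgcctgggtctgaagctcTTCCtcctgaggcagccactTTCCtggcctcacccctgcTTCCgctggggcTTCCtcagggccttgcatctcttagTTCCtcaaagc

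GGAA, read on both strands, occurs 6 times before *Siglecf*, 7 times before *Cd33* and 5 times before *Siglece*, and 93.4% of all 32851 start windows of the same length hold it. *Siglecf* and *Cd33* share a stretch of 16 bases, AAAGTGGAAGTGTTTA, which no other of the 32851 windows holds on either strand. It includes GGAAGT, which 19.7% of all windows hold and which occurs once before each of these genes and not before *Siglece* or *Siglecg*. A given stretch of 16 bases is rare among such windows by its length alone, so its absence from the others adds no weight. A local alignment over the 250 bases matched 25 of 31 bases of *Siglecf* (-35 to -5 from the start) and *Cd33* (-165 to -135). With the 50 bases after the start included, the alignment of these genes grew to 85 positions with 65 identical bases (76.5%), and for no other pair did it exceed 27 positions. The motifs GAGGAAGT, TTCNNNGAA and GATAA had no match before any of the 4 genes, with 2.44%, 7.02% and 22.6% of all windows holding them. TGTGGT, the letters bound by RUNX factors, occurs before *Cd33* and in 14.0% of all windows, and TTNCNNAA, of the C/EBP kind, occurs 2 times before *Siglecf*, 1 time before *Siglece* and in 36.8% of all windows. A match is a description of the letters and does not show that a factor binds there.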

How the data were processed

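RNA-Seq libraries of sorted cardiac neutrophils were prepared by the authors from poly(A)-selected RNA with the NEBNext Ultra II kit and sequenced as paired ends, and CLC Genomics Workbench 20.0 gave TPM. The submitters' processing notes name GRCm39. The annotation release and the strand setting are not given in the sources used here. The authors deposited a count per gene, without normalization, RPKM, scaled to length and depth, and TPM. Log2((TPM + 1) ratios) were calculated here from the deposited TPM, and Poisson intervals from the counts, with exact conditional binomial intervals for TPM ratios (Python 3.11.15, scipy 1.17.1). TMM factors came from edgeR 4.0.16 in R 4.3.3. The calculations were tested on simulated counts. Alternatives were a pseudocount of 0.1, a mean TPM over 1, no limit, a log2 threshold of 1, TMM-scaled CPM, median centring and RPKM for the order of the genes. Besides the Siglec genes, the genes named from the sialic acid and signalling lists were those with the highest mean TPM of each list, those past 0.5 in the same direction in both comparisons of a kind, and a few named after their values were seen. The Siglec genes and the lists were chosen with earlier results of these data known. Protein sequences were not analysed here.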

Additional observations from a re-analysis of the deposited data

Results flagged for a closer look

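*Siglec1* was the Siglec gene whose genotype ratio had opposite signs in the 2 subsets, with both counting intervals clear of 0. The log2 ratio of *Cd300a-/-* to WT was -0.26 in SiglecF hi neutrophils (36.3 against 43.6 TPM) and 0.60 in SiglecF lo neutrophils (14.5 against 9.21 TPM). The signs were the same with TMM scaling and with median centring. As a percentage of the summed macrophage list, a scale chosen after seeing the values, the log2 ratios were -0.12 (SiglecF hi) and 0.72 (SiglecF lo cells). In SiglecF hi neutrophils *Mertk*, *Fcgr1*, *C1qc*, *Folr2*, *C1qb*, *C1qa* and *Mrc1* also had negative ratios, while *Cd163* and *Lyve1* were called higher. *Csf1r* (0.07) and *Timd4* (0.95, under the limit) had positive ratios too, and *Adgre1* was at 329 TPM in both genotypes. The part of macrophage RNA was not tested. With 1 library per group, whether the genotypes differ between the subsets beyond the spread between pools of mice was not tested.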

How the results depend on the processing

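No paired analysis was possible because each comparison holds 1 pair of libraries, and no replicate could be left out. A fit of genotype and subset over all 4 libraries, with 1 residual degree of freedom, could have been made and was not run. In SiglecF hi neutrophils, 1 Siglec gene, *Siglecg*, was called between genotypes with a mean TPM limit of 1 and 1 without a limit, against 0. In SiglecF lo neutrophils 0 were called with a log2 threshold of 1, against 2. The numbers of Siglec genes called between the subsets stayed within 1.5 times under all alternatives, but with a log2 threshold of 1 *Siglecf* and *Siglec1* alone remained, so that no gene was called lower, and with the lower limits *Siglecg* was added in *Cd300a-/-*. The differences of the genotype ratios stayed within their counting intervals, and RPKM kept the order of the 5 genes. Of the sialic acid genes in *Cd300a-/-*, centring left 4 and TMM scaling 5 higher in SiglecF hi neutrophils, against 8, and both gave 6 lower, against 2. Centring left 0 higher in *Cd300a-/-* SiglecF hi neutrophils, against 1. Of 20 ratios of Siglec genes, 10 moved beyond their counting interval under centring and 10 under TMM scaling, all between the subsets, and *Siglecg* in WT changed sign under both. As a percentage of the summed macrophage list, a scale chosen after seeing the values, *Siglec1* had SiglecF hi to SiglecF lo log2 ratios of 0.93 in WT and 0.09 in *Cd300a-/-*, against 2.13 and 1.27, and genotype log2 ratios that came to -0.12 (SiglecF hi) and 0.72 (SiglecF lo cells), against -0.26 and 0.60. The cause was not tested, except that the lower limits test more genes. At 54 to 233 counts per library, depth limits *Siglecg* most. The planned protein comparison was not run.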
